A study of Talpa occidentalis with 2 samples.

Results

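Single-exon copies of multi-exon genes were taken from the gene annotation deposited for build talOcc3 of the Iberian mole, Talpa occidentalis. A member is a gene model with 1 coding exon whose symbol is also carried by at least 1 model with 3 or more coding exons. The symbol is the model name without its copy and low-confidence suffixes, and ribosomal protein genes, olfactory receptor genes, LOC names and bare model identifiers were left out. The rule found 1417 members among 23336 gene models. They carry 807 of the 13787 symbols that have a model of 3 or more coding exons, a background share of 5.85%. The members were chosen by the deposited exon counts and symbols, so their number and the presence of a longer model are descriptions and support nothing.

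The series profiled contacts of the FGF9 promoter by 4C-seq, a method that sequences the fragments ligated to a chosen viewpoint in fixed chromatin. It has 1 forebrain and 1 hindlimb library, both from wild-type embryos of embryonic day 15, with no replicates. The annotation has no column for either library, contact values were not analysed here, and every value below belongs to 1 assembled genome. Shares carry 95% Wilson intervals, which cover counting error only, and no test between groups of samples exists.

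A spliced messenger RNA can be reverse-transcribed and inserted elsewhere in the genome by the enzymes of LINE-1 elements. The insert, called a retrocopy, lacks the introns of its parent, usually lacks the parental promoter, and often stops short of the parental 5′ end because reverse transcription starts at the 3′ end. Most retrocopies in mammals decay as processed pseudogenes, and their parents are mainly genes with abundant messages in the germ line, such as those for ribosomal proteins, chaperones and cytochrome oxidase subunits. A model with 1 exon can also be a piece of a gene split between models, 1 exon of a duplicated gene, or a gene that never had introns. The members were not sorted into these classes. What the deposited matches show for each is given instead.

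Most members came from exonerate, a program that aligns known transcripts or proteins to a genome: 1243 of 1417 (87.7%, interval 85.9 to 89.3%). A further 137 came from a source named ALN and 37 from EVM, which merges several lines of evidence into a model. A single copy was found for 598 of the 807 symbols (74.1%). Of all 13787 symbols, 209 (1.52%) had at least 2 copies, and 39 had at least 5. The copies of a symbol are not always separate insertions, because 120 members (8.47%) lay within 5 kb of another member of the same symbol on the same scaffold. Joining these left 1354 loci.

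The members were mostly shorter than their parents. The parent is the model of the symbol with 3 or more coding exons and the longest coding length. The median coding length of a member was 444 bases, and its median share of the parental coding length was 41.6% (interval of the median 39.3 to 44.0%). The quartiles were 22.3 and 78.3%, and the range ran from 1.05 to 553%. At least 80% of the parental length was reached by 349 members (24.6%, interval 22.5 to 26.9%), and 303 members fell under 20%. A group of 137 members lay between 95 and 105% of the parental length, the second peak in the histogram of coding length over parent. The member was longer than the longest coding exon of its parent in 913 of 1417 cases (64.4%, interval 61.9 to 66.9%).

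**Figure D1:**
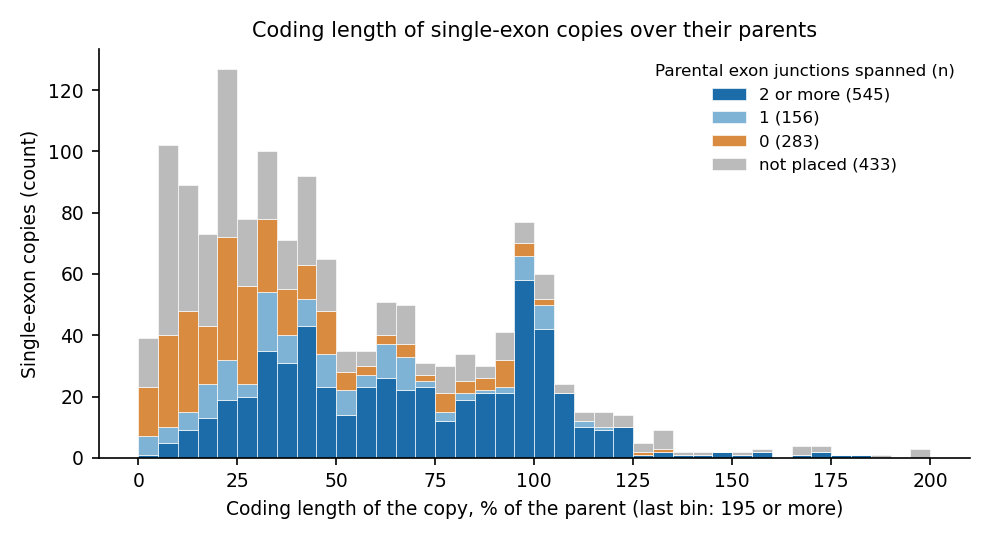
Coding length of each of the 1417 single-exon copies as a percent of its parent's coding length (x axis) against the number of copies (y axis), stacked by how many exon junctions of a multi-exon model the copy's matched part spans. Copies spanning 2 or more junctions (545) make up most of the peak near full length, and copies spanning 0 (283) lie mainly under 50%.

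The rule asks for 3 coding exons in the longer model. The longest model of the symbol had exactly 3 coding exons for 200 members of 73 symbols, whose median share of the parental length was 66.8%. Just outside, 185 single-exon models belonged to symbols with at most 2 coding exons, with a median of 75.9% of the 2-exon model. Another 552 models had 2 coding exons beside a model of 3 or more, with a median of 41.1% of the parental length.

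Whether a member's match runs across exon borders of a multi-exon model was read from the deposited matches. Such a border is one drawn by the annotation and need not be a splice junction. The 545 members below that span at least 2 include 10 of COX1, a mitochondrial gene without introns. The annotation names, for each transcript, the target it was matched to and the first and last matched position. These positions are not always bases: for the 3 copies of BTN1A1 the medians are 546 coding bases and target positions 302 to 473. In such matches the margin and missing ends given below in bases count target positions. How many matches are of this kind was not determined. For 984 members, a multi-exon model of the same symbol was matched to the same target, so its exon junctions could be placed on that target. A junction counted as spanned when the member's match reached at least 10 bases past it on both sides. At least 1 junction was spanned by 701 of the 984 (71.2%, interval 68.3 to 74.0%), at least 2 by 545 (55.4%, interval 52.3 to 58.5%), at least 5 by 156 and at least 10 by 28. Among the 893 members whose multi-exon model had 2 or more junctions on the target, 298 (33.4%) spanned them all. No junction was spanned by 283 members (28.8%), of which 43 had none to span because the multi-exon model's own match held no junction. For 91 members that match held fewer than 2 junctions, so they could not be counted as spanning 2. Of the 893 others, 545 (61.0%, interval 57.8 to 64.2%) did. These 893 still include members whose match lay outside that of the multi-exon model, which were not counted apart. LRP1B_copy2, for example, matched 0% of what its multi-exon model matched. Among the 283 members spanning 0, the lower quartile of this matched share was 3.11%. Of all 13787 symbols, 352 (2.55%) had a copy that spanned at least 2 junctions. Members whose junctions could not be placed count here as not spanning. This share, and the like shares by gene list below, are therefore lower bounds.

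Members with many junctions and members with none differed in more than length. Those spanning 2 or more junctions had a median of 67.9% of the parental length and matched a median of 88.6% of what their multi-exon model matched. Those spanning 0 had medians of 25.7 and 21.5%. These differences in length follow in large part from the measure, because a longer match passes more junctions. On scaffolds of at least 1 Mb lay 86.8% (interval 83.7 to 89.4%) of the first group and 39.9% (34.4 to 45.7%) of the second. A place in an intron of another model was held by 71 of 545 (interval 10.5 to 16.1%) and 10 of 283 (interval 1.93 to 6.38%). A coding length that is a multiple of 3 was found in 55.2% (51.0 to 59.4%) and 72.1% (66.6 to 77.0%). The intervals do not overlap for any of these 3 measures, although scaffold size moves with all of them, and its part in the differences was not tested. The intervals also count copies of 1 symbol as if they were independent. Among the 283 members spanning 0, COX1 supplied 23, TRIM38 19, ZNF658B 12 and BMS1P20 10. How far such symbols carry the differences was not tested.

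Among the 545 members that spanned at least 2 junctions, the 5′ end of the parental match was missing more often than the 3′ end. More than 30 bases were missing at the 5′ end in 236 (43.3%, interval 39.2 to 47.5%) and at the 3′ end in 185 (33.9%, interval 30.1 to 38.0%). Of the 207 that lacked only one end, 129 (62.3%, interval 55.5 to 68.6%) lacked the 5′ end. Neither end was missing in 231. Without COX1, a mitochondrial gene name described below, the 5′ end was the missing one in 122 of 200 (61.0%).

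The symbols with most copies fell into groups of different kind. The 15 symbols with most held 270 of the 1417 members. PPIA, HSPD1 and EEF1A1 encode abundant housekeeping proteins, and their copies lay on large scaffolds and mostly spanned junctions. COX1, TRIM38, XYLB, PTCHD3, SIRPA and the zinc finger genes ZNF658B, ZNF717 and ZNF658 had copies mostly on scaffolds under 1 Mb, which the plot of the 15 symbols shows as open points.

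**Figure D2:**
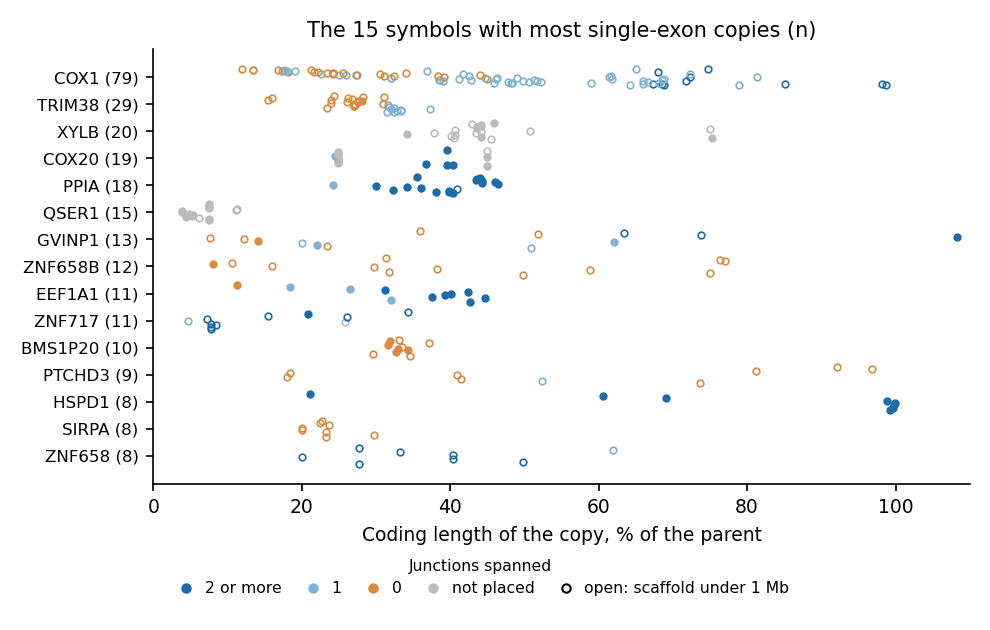
Coding length of each copy as a percent of the parent's (x axis) for the 15 symbols with most single-exon copies (y axis, number of copies in brackets). Each point is a copy, coloured by the number of parental exon junctions its match spans and open where its scaffold is under 1 Mb. All 79 COX1 copies are open, and all 8 HSPD1 copies are filled and span at least 2 junctions.

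PPIA encodes cyclophilin A, a cytosolic peptidyl-prolyl isomerase and one of the best known sources of retrocopies in mammals. Its 18 copies lay on 16 scaffolds, 17 of them on scaffolds of at least 1 Mb and 1 in an intron, of EXOC6B. They had 267 to 512 coding bases, against 1101 in the 6 coding exons of the parent on scaffold 12. That parental model is longer than its matched part of the target, so coding length understates the copies: they had a median of 40.1% of the parental coding length but matched a median of 77.2% of what the parent matched. At least 2 of the 4 junctions inside that match were spanned by 17 of the 18, and all 4 by 14. The top copy, PPIA_copy2 on scaffold 6 (24602057 to 24602568, plus strand), matched 87.0% of the parental match and scored 87.3% of the parent's score. A coding length divisible by 3 was found in 5 of the 18.

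HSPD1 encodes the mitochondrial chaperonin HSP60. All 8 copies spanned at least 2 of the 10 junctions of the 11-exon parent on scaffold 23, and 5 spanned all 10. Those 5 had 1703 to 1720 coding bases against 1722 in the parent, 98.9 to 99.9% of its length, and scored 91.1 to 95.8% of its score. They lay on 5 scaffolds: HSPD1_copy2 on 8, HSPD1_copy3 on 20, HSPD1_copy4 on 1, HSPD1_copy5 on 4 and HSPD1_copy6 on 19. The other 3 covered 69.1, 60.6 and 21.1% of the parental length, and each reached the 3′ part of the target. Only 3 of the 8 had a coding length divisible by 3.

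EEF1A1 encodes the elongation factor that brings aminoacyl-tRNA to the ribosome. Its 11 copies covered 11.2 to 44.7% of the parental 1389 bases, and 7 spanned at least 2 of 6 junctions. No copy was close to full length, and the copies matched different stretches from the 5′ to the 3′ part of the target. HSPA8, the constitutive HSP70 chaperone, was alike in this, with 7 copies of 234 to 633 bases against 2145 in the parent. HSPA8_copy2 and HSPA8_copy5 lay next to each other on the plus strand of scaffold 2, at 54041965 to 54042597 and 54042897 to 54043289, so the 7 models need not be 7 separate copies.

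**Figure D3:**
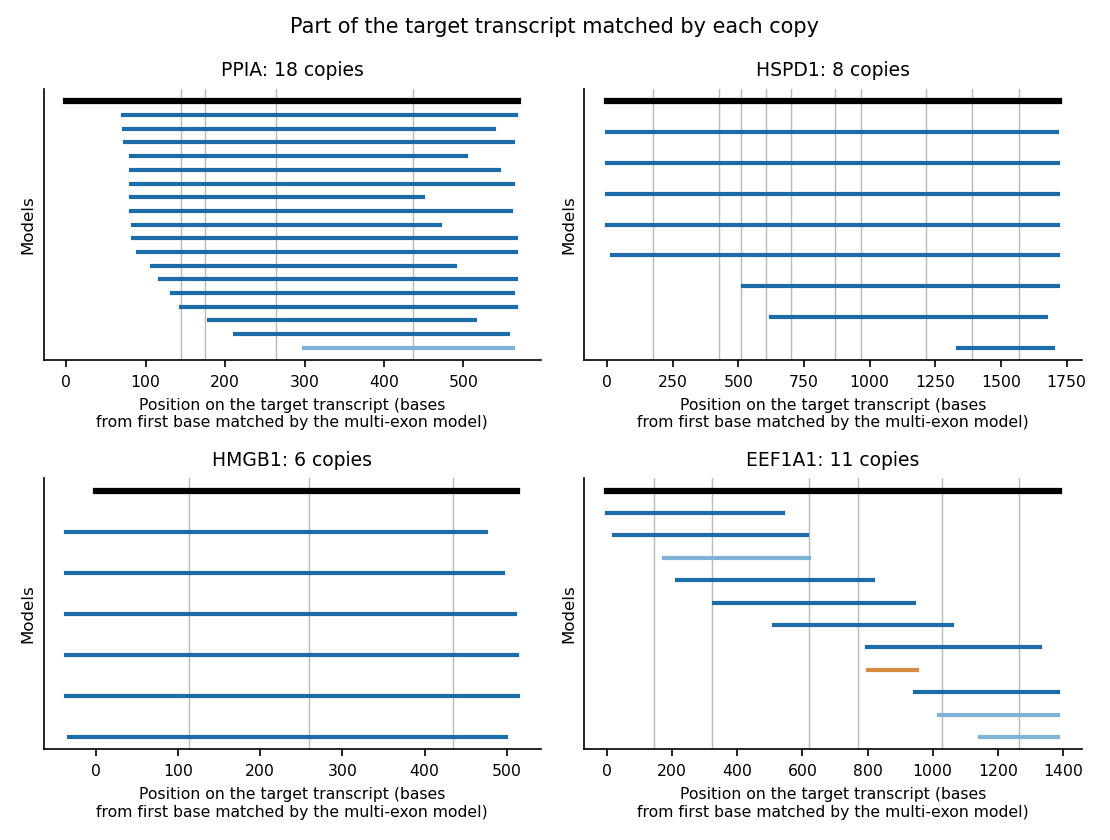
Part of the target transcript matched by the multi-exon model (black, top) and by each single-exon copy below it, for PPIA (18 copies), HSPD1 (8), HMGB1 (6) and EEF1A1 (11); the x axis gives bases from the first base matched by the multi-exon model, and grey lines mark its exon junctions. Copies are dark blue where they span 2 or more junctions, light blue for 1 and orange for 0; 5 of the HSPD1 copies run almost the whole length, and no EEF1A1 copy does.

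COX1 is the name of a cytochrome oxidase subunit encoded in the mitochondrial genome, which has no introns. Its 79 members lay on 79 different scaffolds, all under 1 Mb, and had 183 to 1519 coding bases. The model of 3 coding exons that brought them under the rule, COX1_copy2, lies on scaffold 5 and has 1538 coding bases. At least 2 junctions were spanned by 10 of the 79. Mitochondrial DNA copies in the nucleus are known as NUMTs, and whether these scaffolds are nuclear or mitochondrial was not tested.

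By coding length, few copies of the remaining symbols with most copies came near their parent, among them PTCHD3 copies of up to 96.8%. The share of the multi-exon model's match, for copies on the same target, differed between symbols. Its median was 99.8% for ZNF658B, 99.0% for COX20, 98.9% for BMS1P20, 87.0% for ZNF658 and 71.2% for ZNF717. It was 32.6% for SIRPA, 30.3% for TRIM38, 29.0% for GVINP1 and 21.5% for PTCHD3. For XYLB and QSER1 it could not be read. TRIM38, a RING-finger E3 ligase of innate immunity, had 29 copies of 15.4 to 37.3% of the parental length, none spanning 2 junctions and 1 on a scaffold of at least 1 Mb. The 20 copies of XYLB, a xylulokinase, covered 34.2 to 75.3% of the parental length but were matched to other targets than its multi-exon model, so no junction could be placed. XYLB_copy13, with a score of 5.88% of its parent's, is an example of how weak such matches can be. COX20, an assembly factor of cytochrome oxidase, had 19 copies, of which 5 shared a target with the multi-exon model and 4 spanned at least 2 junctions. QSER1, a glutamine- and serine-rich protein, had 15 copies of 3.88 to 11.2% of the parental 5796 bases. GVINP1, a large interferon-inducible GTPase pseudogene name, had 13 copies, 6 of which are among the 8 longest members of all. The longest, GVINP1_copy2 on scaffold 18, had 6417 coding bases, 108% of a parent on the same scaffold. Of the 8 copies of ZNF658, all on small scaffolds, 7 spanned at least 2 junctions. The 12 copies of ZNF658B had none to span, because the match of its multi-exon model held 0 junctions. That of BMS1P20 held 1, so its 10 copies could not span 2. Of 9 copies of PTCHD3, with 4 junctions on the target, and 8 copies of the signal-regulatory receptor SIRPA, with 3, 0 spanned 2.

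The functions of the parents were described over 24 gene lists. They hold 243 of the 807 symbols with a copy and 485 of the 1417 members. The lists were chosen with earlier results of these data known, and each share is a description beside the 5.85% of all symbols.

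**Figure D4:**
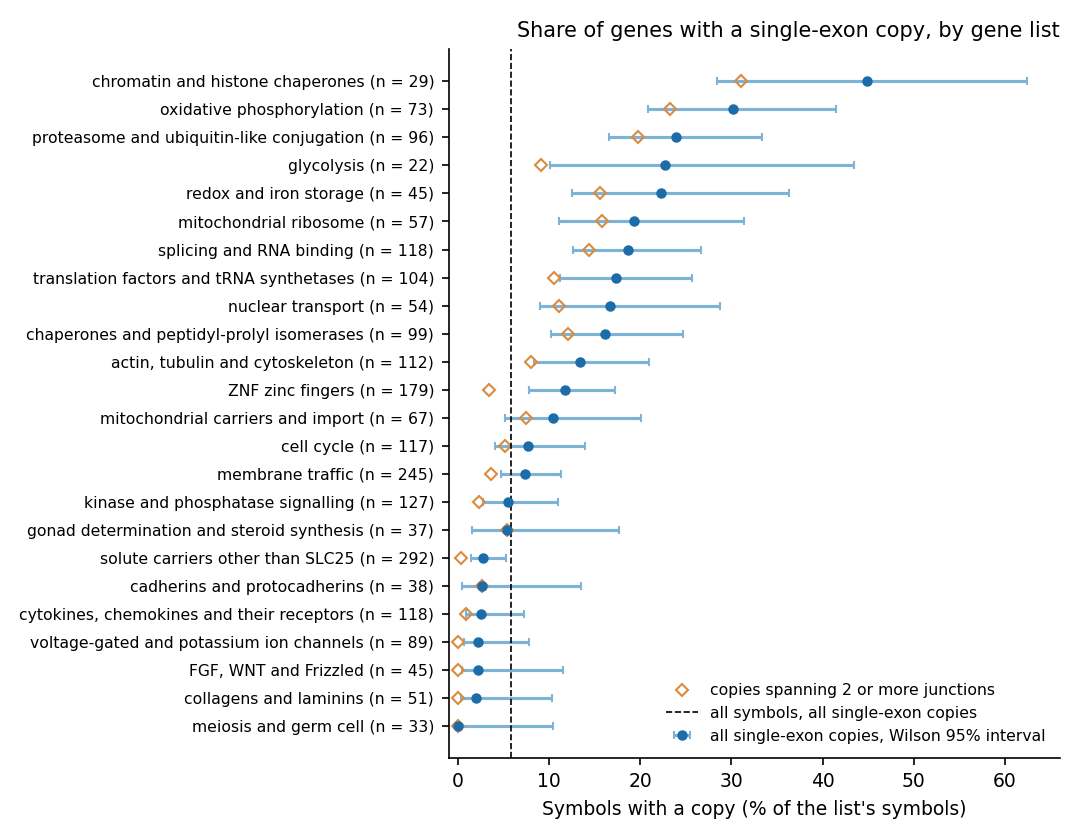
Percent of each list's symbols (those with a model of 3 or more coding exons, n in brackets) that have a single-exon copy, with Wilson 95% intervals (filled), and percent with a copy that spans at least 2 parental junctions (open diamonds); the dashed line is the 5.85% of all symbols. Chromatin, oxidative phosphorylation and proteasome lists lie highest, and collagens, channels, FGF and WNT genes and meiosis genes lowest.

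Chromatin proteins and histone chaperones had the highest share, 13 of 29 symbols (44.8%, interval 28.4 to 62.5%). HMGB1, a DNA-bending chromatin protein, had 6 copies, and all 6 spanned all 3 junctions on the target and had 97.2 to 105% of the coding length of the parental model. A pair of them lay in introns, of RFWD2 and WDR25, and the model named HMGB1 without a suffix is itself one of these copies, on scaffold 5. H3F3A, a replication-independent histone H3 gene, had 5 copies of 59.9 to 101% of the parental length, and 4 of them spanned both junctions. The 5 copies of SET, a histone chaperone, included SET_copy2, which spanned 5 of 5 junctions, while the other 4 were matched to another target. HMGN2, a nucleosome-binding protein, had 4 copies that spanned all 3 junctions and matched 90.1 to 100% of the parental match, with HMGN2_copy5 inside BRPF1.

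Oxidative phosphorylation followed, with 22 of 73 symbols (30.1%, interval 20.8 to 41.4%), and 22 of its 41 copies reached 80% of the parental length. ATP5L, a subunit of ATP synthase, had 5 copies of 84.9 to 107% of the parental length. ATP5F1, the b subunit of the stalk, had 4 copies of 34.6 to 92.7%, 3 of them on scaffolds under 1 Mb. COX7B, a small subunit of cytochrome oxidase, had 4 copies that spanned both junctions, with 92.6 to 98.8% of the parental length and coding lengths that are all multiples of 3. COX7B_copy2 lay inside STRBP and COX7B_copy4 inside KIAA1468. Mitochondrial ribosome genes had a copy for 11 of 57 symbols (19.3%, interval 11.1 to 31.3%). MRPL42, of the large subunit, had 5, of which 4 had 99.3 to 100% of the parental length and scored above every multi-exon MRPL42 model. Mitochondrial carriers and import proteins had a copy for 7 of 67 symbols (10.4%), with an interval that includes the background. Both copies of the phosphate carrier SLC25A3 had 1086 coding bases and spanned 5 of 5 junctions.

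Protein turnover was represented by 23 of 96 proteasome and ubiquitin-like conjugation symbols (24.0%, interval 16.5 to 33.4%), 19 of them with a copy spanning at least 2 junctions. UBE2V2, a partner of the ubiquitin-conjugating enzyme UBE2N, had 5 copies of 50.9 to 92.1% of the parental length. UBE2N itself had 3, of 93.3 to 106%, and all 3 spanned both junctions. SUMO2, a ubiquitin-like modifier, had 3 copies, and the model named SUMO2 without a suffix lay in an intron of SMYD3. Chaperones and peptidyl-prolyl isomerases, with PPIA, HSPD1 and HSPA8, had a copy for 16 of 99 symbols (16.2%, interval 10.2 to 24.7%).

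RNA-related lists gave 22 of 118 symbols for splicing and RNA binding (18.6%, interval 12.6 to 26.6%) and 18 of 104 for translation factors and tRNA synthetases (17.3%, interval 11.2 to 25.7%). SNRPE, a core protein of spliceosomal particles, had 5 copies of 86.1 to 119% of the parental length, 3 of which scored above every multi-exon SNRPE model. HNRNPDL, an RNA-binding protein, had 3 copies that spanned 5 of 5 junctions. For HNRNPA3, by contrast, the match of the multi-exon model held 0 junctions. TPT1, the translationally controlled tumour protein, had 6 copies of 54.0 to 108% of the parental length, 5 of which spanned 3 of 6 junctions. The 4 copies of KARS, the lysyl-tRNA synthetase gene, lay on scaffold 5 in neighbouring pairs, KARS_copy4 and KARS_copy2 from 10793534 to 10795411 and KARS_copy5 and KARS_copy3 from 36988877 to 36990565.

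Redox and iron storage had a copy for 10 of 45 symbols (22.2%, interval 12.5 to 36.3%), led by FTH1, the ferritin heavy chain, with 7 copies. Of these 6 reached 84.8 to 93.3% of the parental length and 4 scored above every multi-exon FTH1 model, but the match of the multi-exon model held no junction. FTL, the ferritin light chain, had 3 copies, and TXN, thioredoxin, had 2 that spanned 3 of 3 junctions. Glycolysis had a copy for 5 of 22 symbols (22.7%, interval 10.1 to 43.4%). LDHA, a lactate dehydrogenase subunit, had 3 copies of 38.4 to 85.2% spanning 2 to 6 of 7 junctions. GAPDH, a frequent source of retrocopies in other mammals, had a single short member of 111 bases, GAPDH_copy5.

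Cytoskeletal and transport genes came next. Actins, tubulins and other cytoskeletal genes had a copy for 15 of 112 symbols (13.4%, interval 8.29 to 20.9%). ACTB, beta-actin, had 5 copies, all spanning at least 2 of 4 junctions, and the model named ACTB without a suffix was a single-exon copy on scaffold 18 with 1149 coding bases against 1284 in the 5-exon parent. TUBA1A, an alpha-tubulin, had 5 copies of 16.3 to 91.6% of the parental length. Nuclear transport had 9 of 54 symbols (16.7%, interval 9.02 to 28.7%), led by the GTPase RAN with 5 copies of 79.8 to 165%. Cell cycle genes had 9 of 117 (7.69%, interval 4.10 to 14.0%), membrane traffic 18 of 245 (7.35%, interval 4.70 to 11.3%) and kinase and phosphatase signalling 7 of 127 (5.51%, interval 2.70 to 10.9%), shares whose intervals include the background. CCNB2, a mitotic cyclin, had 1 copy that spanned 7 of 7 junctions and another inside PTPRD.

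Lists of transmembrane, extracellular and ligand genes had shares below the background of 5.85%. Of the lists in this paragraph, only the solute carriers had an interval that excludes it. Solute carriers other than the SLC25 family had a copy for 8 of 292 symbols (2.74%, interval 1.39 to 5.31%), cytokines and their receptors for 3 of 118 (2.54%, interval 0.868 to 7.21%) and ion channels for 2 of 89 (2.25%, interval 0.618 to 7.83%). Among collagens and laminins, COL6A6 was the single case in 51 (1.96%, interval 0.347 to 10.3%), with a copy of 3.54% of the parental length. CDH8 was the single case among 38 cadherins and protocadherins (2.63%, interval 0.466 to 13.5%). The interferon gene IFNW1 supplied 6 of the 8 cytokine copies, and type I interferon genes have no introns in other mammals. FGF, WNT and Frizzled genes had 1 of 45 (2.22%, interval 0.393 to 11.6%). This was FGFR1OP2, which the name pattern caught although it encodes a partner of FGFR1 in a fusion and not a receptor. FGF9 had no single-exon copy.

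Gonad determination and steroid synthesis genes had a copy for 2 of 37 symbols (5.41%, interval 1.5 to 17.7%), close to the background. HSD17B12, a ketoreductase of fatty acid elongation that also acts on estrone, had HSD17B12_copy2 on scaffold 16 with 98.4% of the parental length and 10 of 10 junctions. HSD17B10, a mitochondrial dehydrogenase, had HSD17B10_copy2 with 34.8% and 3 of 5 junctions. Of 33 meiosis and germ cell symbols, 0 had a copy (interval 0 to 10.4%).

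Among zinc finger genes named ZNF, most members lay on small scaffolds. A copy was found for 21 of 179 symbols (11.7%, interval 7.80 to 17.3%), with 67 members in all, but 17 of the 67 lay on scaffolds of at least 1 Mb. A copy spanning at least 2 junctions was found for 6 of the 179 (3.35%), against 2.55% of all symbols. ZNF genes of this family keep most of their zinc fingers in 1 long last exon.

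Parents of single-exon copies had slightly fewer exons than other genes. Their longest models had a median of 8 coding exons and 1191 coding bases, and the parents of copies spanning at least 2 junctions 7 exons and 948 bases. Symbols without a copy had medians of 9 exons and 1455 bases. Since the rule asks for 3 or more exons on both sides, this is a description of the chosen symbols.

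Members, like the other groups of models compared, lay mostly outside other genes. Intergenic places, overlapping no other model, were held by 1271 of 1417 (89.7%, interval 88.0 to 91.2%), and places within an intron of another model by 8.68% (interval 7.32 to 10.3%). Another 22 overlapped a coding exon of another model, and 1 fitted neither class. The intergenic share was higher for 2 comparison groups. It was 92.8% for single-exon models of symbols with 1 model and 94.3% for further models of 3 or more coding exons. For single-exon copies of ribosomal protein genes it was 81.9%. The intronic shares of these 3 groups were 5.88, 2.09 and 16.7%. Of the intronic members, 114 (8.05% of all members) lay in 110 different models of another symbol, in introns of 11.3 kb in the median, and 9 lay in a model of their own symbol. All 114 were antisense to their host. This reading is limited by the annotation itself, which holds 0 pairs of overlapping models on the same strand and 850 on opposite strands, so a copy in the sense direction inside a gene has no model to be counted.

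Intronic members included copies of full coding length. GEMIN2_copy2, of a subunit of the SMN complex that assembles spliceosomal particles, had all 810 coding bases of its 10-exon parent and spanned 9 of 9 junctions inside ATP6AP1L on scaffold 8 (43017941 to 43018750). PCBP2_copy2, of an RNA-binding protein for poly(C), had 1086 of 1089 bases and 13 of 13 junctions inside DCBLD1 on scaffold 7 (48216662 to 48217747). ZCRB1_copy3, of a protein of the minor spliceosome, spanned 6 of 6 junctions inside the channel gene TRPC1. HSPD1_copy6, with 10 of 10 junctions, lay inside ANKS1B. CHCHD2_copy4, FCF1_copy2, ENY2_copy3 and DBI_copy8 had 98.9 to 99.3% of the parental length inside ERCC6L2_copy2, MCF2L2, MAP4K3 and SYT1. Members inside their own symbol were mixed. SYNE3_copy2 and NUP210L_copy2 had 7.87 and 3.75% of the length of the gene that surrounds them, and TRIM38_copy44 had 27.0% of its parent's. KRTAP13-1_copy3 had 103% of the parental length and spanned 2 of 2 junctions. KRTAP10-3 spanned 4 of 4 and matched 98.3% of the parental match, but only 41.8% of its own coding length was aligned. Both symbols are of keratin-associated proteins of hair.

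The extremes of the length ratio rested on the parent. ZDBF2, with 3724 coding bases, had 553% of a 3-exon model of 673 bases that lies on the same scaffold 23 and ends at 15751417, where ZDBF2 starts at 15754114. ZNF484 had 467% of a 3-exon model on the same scaffold 25, and SETD9 195% of a model on another scaffold. At the other end, LRP1B_copy2 had 126 bases against 11997 in a 77-exon parent on the same scaffold, ABCA13_copy12 had 1.15% of its parent on the same scaffold, and BIRC6_copy2 had 207 bases on a scaffold of 0.00151 Mb. The 5 members whose parents have most exons, those of LRP1B, NBEAL1, BIRC6, DNAH9 and LRP2, had 1.05 to 3.42% of the parental length. EHBP1_copy2 on scaffold 6 differed, with 3588 coding bases (77.1% of a 25-exon parent on scaffold 9) and a score of 99.8% of the parent's.

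The copies were on other scaffolds than their parents in 1284 of 1417 cases (90.6%, interval 89.0 to 92.0%). Among 1341 further models of 3 or more coding exons, compared in the same way with the longest model of their symbol, 27.2% were on another scaffold. Ribosomal protein copies, which the rule leaves out, were on another scaffold in 96.9% of 359 cases. On scaffolds of at least 1 Mb lay 1005 members (70.9%, interval 68.5 to 73.2%), against 87.5% of all models and 75.1% of members without COX1. The 412 others were on 381 small scaffolds, and 141 of them belong to 5 symbols. Across the 33 scaffolds of at least 20 Mb, members numbered 0.195 to 1.22 per Mb with a median of 0.509.

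Density was also compared for 5 scaffolds that carry genes of the human X chromosome. A list of 30 human X genes, written after the data had been seen, had 29 symbols with a model of 3 or more exons, and 27 of them lay on scaffolds 24, 32, 30, 43 and 42, which together hold 92.0 Mb. These 5 scaffolds carried 87 members, 0.946 per Mb, against 918 members or 0.504 per Mb on the other scaffolds of at least 1 Mb. For copies spanning 2 or more junctions the densities were 0.424 and 0.238 per Mb. The 5 scaffolds were not alike: members numbered 1.12 per Mb on scaffold 24, 1.22 on 32 and 1.65 on 43, but 0.368 on 30 and 0.384 on 42, below the other scaffolds. Copies spanning 2 or more junctions numbered 0.138 per Mb on scaffold 30 and 0.128 on 42, again below. Scaffold 45 was counted among the others, although it holds the multi-exon model of CXorf56, a symbol named for the human X chromosome. It carried 13 members, 2.39 per Mb, and 1.29 per Mb spanning 2 or more junctions, above each of the 5 scaffolds. The gene list therefore need not cover every scaffold with human X genes. Of 980 members that lie with their parents on scaffolds of at least 1 Mb, 85 (8.67%, interval 7.07 to 10.6%) lay on the 5 scaffolds, which hold 4.81% of the bases. Members with a parent on the 5 scaffolds numbered 35 of the 980 (3.57%, interval 2.58 to 4.93%), which counts a parent again for each of its copies. Of all models with 3 or more exons on scaffolds of at least 1 Mb, each counted 1 time, 3.41% lay on the 5 scaffolds. On the 5 scaffolds and elsewhere the places of parent and copy crossed: 82 members on these scaffolds had a parent elsewhere, and 32 members elsewhere had a parent on them. The mole's sex chromosomes were not identified from these data beyond the listed genes.

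Frame and the later annotation gave readouts that the rule did not use. A coding length that is a multiple of 3 was found in 64.1% of the members (interval 61.5 to 66.5%) and in the same 64.1% of ribosomal protein copies. It was found in 82.9% of 885 single-exon models whose symbol has no other model and in 90.5% of further multi-exon models. Among exonerate models alone the shares were 64.0, 62.0, 81.3 and 61.7%, the last from 81 models, so the difference from multi-exon models was not seen within that source.

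The RefSeq annotation of the later mole build MPIMG_talOcc4v2.1 was read through neighbouring genes, since positions cannot be carried between builds. For 723 intergenic members the flanking genes could be found on 1 RefSeq sequence. A RefSeq pseudogene lay between the same neighbours for 465 of them (64.3%, interval 60.8 to 67.7%). The share was 66.8% (61.7 to 71.5%) for copies spanning 2 or more junctions, 56.5% (44.8 to 67.6%) for those spanning 0 and 64.3% (58.1 to 70.1%) for ribosomal protein copies. It was 31.1% (27.9 to 34.6%) for single-exon models of symbols with 1 model and 27.5% (24.8 to 30.5%) for further multi-exon models. A long interval is more likely to hold any feature, so intervals were also compared by length. In intervals under 50 kb a pseudogene was found in 34.6% of 81 with a member and 6.49% of 7043 without. From 50 to 200 kb the shares were 50.7 and 19.2%, from 200 to 500 kb 63.5 and 31.3%, and from 500 kb on 76.7 and 48.7%. Counting only RefSeq features of 0.5 to 3 times the member's length, 202 of the 723 (27.9%) had only pseudogenes between the neighbours, 137 (18.9%) only protein-coding genes, 99 both and the rest neither. Such a feature need not be the member itself. No like-length share is given here for intervals without a member, so these shares have no background.

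**Figure D5:**
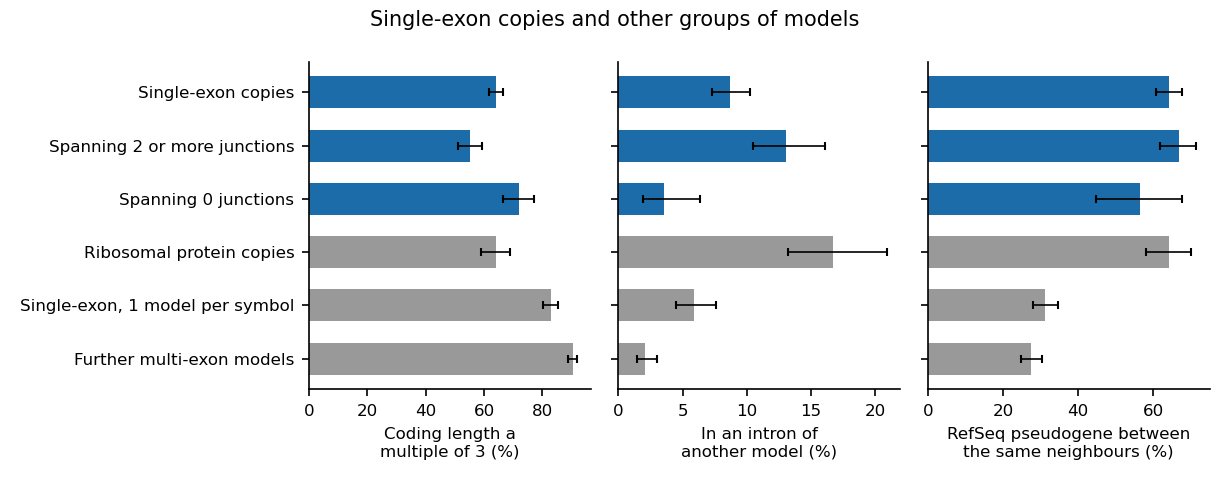
Percent of models (x axes, with Wilson 95% intervals) whose coding length is a multiple of 3 (left), that lie in an intron of another model (middle) and that have a RefSeq pseudogene between the same neighbours, among those that could be placed (right). Blue bars are single-exon copies, all and by junctions spanned, and grey bars are comparison groups; on the right, copies at 64.3% lie with ribosomal protein copies and above the other 2 grey bars.

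Names in the annotation did not always go to the gene with introns. The model without a copy suffix, to which the annotation gives the plain gene name, was the single-exon one for 144 members (10.2%), and 176 members (12.4%, interval 10.8 to 14.2%) scored above every multi-exon model of their symbol. For 677 symbols listed only 1 time in RefSeq, the RefSeq gene lay beside the neighbours of the multi-exon model in 615 (90.8%, interval 88.4 to 92.8%). It lay beside those of the single-exon model in 3, MAGEB17, RNF113A and RNF146, beside both in 2, E4F1 and FBXL13, and beside neither in 57. Among the 116 of these symbols whose plain name sits on a single-exon model, the multi-exon model was still the one beside the RefSeq gene's neighbours in 105 (90.5%, interval 83.8 to 94.6%). RNF113A, an intronless gene in other mammals, had 1023 coding bases in its single-exon model on scaffold 45.

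Near the viewpoint, 4 members lay within 2 Mb of the FGF9 start on scaffold 38. The nearest was the model named SYPL1, of a synaptophysin-like vesicle protein, at 12175633 to 12176359 on the minus strand, 414 kb from the FGF9 start. It had 727 coding bases and spanned 3 of 3 junctions of the SYPL1_copy2 model on scaffold 17, and scored 106% of that model's score. The model named PSMC6, of an ATPase subunit of the proteasome cap, lay at 13232378 to 13233564, 1471 kb away, and spanned 13 of 14 junctions of its 15-exon parent on scaffold 6, PSMC6_copy2. XYLB_copy13 lay 1295 kb away, and VDAC2_copy2, of a mitochondrial outer membrane channel, 1958 kb away in an intron of PARP4. Around SALL1 on scaffold 26, for which the labels also list primers, 0 members lay within 2 Mb. Scaffolds 38 and 26 as a whole carried 0.551 and 0.554 members per Mb, so both counts are small and only describe these places.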

How the data were processed

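The deposited gene annotation of build talOcc3 was the data file used. Per the file headers and columns, it holds the authors' first and last base positions (counted from 1) and a deposited score per transcript match. No formula for the score is stated, and scores were set against each other only within a symbol. The submitters' processing notes name BWA without a version.

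Models were read with Python 3.11.15 and numpy 2.4.6, and figures drawn with matplotlib 3.10.9. Coding length sums the coding exons of the 1 transcript of a model, and a host needed at least 2. Scaffold length is the last annotated base. RefSeq names and neighbours came from MPIMG_talOcc4v2.1 (31603 genes, exact match for 13999 of 16075 symbols). The routines were tested on simulated data.

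Members and lists were chosen with earlier results of these data known, and the junction measures, the X gene list, the like-length comparison and the 5 kb joining after values were seen. Named genes are the 15 symbols with most members, 3 per list, the 8 longest, the 8 intronic members nearest to parental length, the extremes of the length ratio, the 5 members whose parents have most exons, members near FGF9 and SALL1, and up to 5 inside their own symbol. E4F1, FBXL13, MAGEB17, RNF113A and RNF146 were named after their values were seen. No sequence is printed, since no talOcc3 sequence was used here.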

Additional observations from a re-analysis of the deposited data

How the results depend on the processing

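The 545 copies that span 2 or more junctions, an alternative chosen after seeing the data, moved most values: 2.55% of symbols had such a copy, the median length was 67.9% of the parent, 41.5% reached full length (80% of the parent), 12.5% were intronic in another symbol, 86.6% intergenic and 95.6% on another scaffold than the parent. On scaffolds of at least 1 Mb the same values were 4.84, 47.6, 30.7, 11.1, 85.7 and 86.0%. With models of at least 300 coding bases, 4.27% of symbols had a copy, the median was 49.6%, 28.9% reached full length, 93.0% were on another scaffold and 68.2% had a RefSeq pseudogene between the same neighbours. Without 297 candidates for split genes, 4.87% of symbols had a copy, the median was 46.1%, 28.8% reached full length and 95.7% were on another scaffold. Parents of 5 or more exons gave a median of 35.2% and 18.3% at full length, exonerate members alone 5.11% of symbols and 22.4%. By the matched part of the target in place of coding length, also chosen after seeing the data, the median was 62.4% and 41.1% reached full length. The cause of these shifts was not tested, beyond the fewer models that each alternative keeps. Leaving out low-confidence models or COX1 moved none of these values beyond its interval. The share of intronic members that were antisense is fixed at 100% by the annotation, which has no overlapping models on the same strand, and says nothing about stability. No paired analysis was possible because each tissue has 1 library and no value belongs to a library. The planned account of 4C contacts by tissue was not run. Read depth does not enter these values; the assembly and its gene models limit them.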

Other observations

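The copies that span 10 or more junctions, 28 in all and chosen after their values were seen, include enzymes that the text has not described. The most junctions, 17 of 18, were spanned by the model named GK, of glycerol kinase, on scaffold 5 (22822745 to 22824403), with 1659 coding bases or 105% of a 19-exon parent on scaffold 24. GK is a gene of the human X chromosome, and its parental model lies on a scaffold with 10 of the listed X genes. UBA3_copy2, of the catalytic subunit of the NEDD8-activating enzyme, spanned 15 of 15 junctions on scaffold 14. CCT6A_copy2, of a subunit of the cytosolic chaperonin, and TM9SF3_copy2 spanned 13 of 13. Copies of DLST, the succinyltransferase of the oxoglutarate dehydrogenase complex, spanned 13 of 13 (DLST_copy2) and 10 of 13 (DLST_copy3). The models named FADS1, a fatty acid desaturase, and PGM3, an enzyme of amino sugar synthesis, spanned 11 of 11 and scored above their multi-exon models, at 104 and 107% of the best score.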
